A study of Mus musculus with 8 samples.

Results

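Protein phosphatase 1 (PP1), calcineurin and the proteins that hold them in check were followed through 10 genes. They are the catalytic subunits Ppp1ca, Ppp1cb and Ppp1cc, the PP1 inhibitors Ppp1r1a and Ppp1r1b, the calcineurin subunits Ppp3ca, Ppp3cb and Ppp3r1, and the calcineurin regulators Rcan1 and Rcan2. The genes were chosen by symbol, and every probe annotated to one of them with a value on all 8 arrays was taken. The array carried 14 such probes, of which 13 had values and cover all 10 genes, and 1 of the 2 Ppp3cb probes was blank. The series as a whole has values for 16588 probes of 29922 and for 11136 named genes.

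RNA came from the left hippocampus of male mice of 6 to 8 weeks, labeled C57BL/6 in all groups; the methods name the wild type as C57BL/6J and the knockout line as bred to a C57/BL6 background for several generations. The 4 groups were Cav3.2 knockout mice (Cacna1h tm1Kcam, homozygous, with no tissue restriction) that had been trace fear conditioned (TFC) and tested for contextual memory (KTL), naive Cav3.2 knockout mice (KNL), wild-type mice after the same training (WTL) and naive wild-type mice (WNL), with 2 arrays each. The left hippocampi of 3 mice were pooled for an RNA sample, and the labels do not say whether the 2 arrays of a group were separate pools, so the p-values below measure the spread between 2 arrays, which may be technical. Each value is the Cy5 intensity of a probe in arbitrary units, and in such bulk tissue fewer cells of a type and less RNA per cell cannot be told apart.

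PP1 and calcineurin remove phosphate from serine and threonine residues and oppose the kinases that are switched on when calcium enters a neuron. Calcineurin is the phosphatase that calcium and calmodulin activate directly; it dephosphorylates the PP1 inhibitors encoded by Ppp1r1a and Ppp1r1b, and PP1 is thereby released. In the hippocampus this cascade is known for its part in long-term depression and for limiting long-term potentiation and memory.

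Each array was checked before the members were compared. The KNL arrays stood apart from all others, with correlations over all probes of 0.852 to 0.938 between a KNL array and those outside its group, against 0.968 to 0.985 between the other groups and 0.979 to 0.993 within a group. These values run across probes, which are not replicates. The targeted Cacna1h read 1171 and 1395 in KTL, 1929 and 1377 in KNL, 2836 and 1838 in WTL and 2732 and 2985 in WNL. Its log2 change was -0.81 in KNL vs WNL (limma, adjusted p = 0.0303) and -0.84 in KTL vs WTL (adjusted p = 0.19). Neither adjusted p was under 0.01, the threshold used below. The sources used here do not give the place of its probe relative to the deletion. Of 14 hippocampal neuron markers 13 were measured, and none lay at the intensity floor of 100 on both arrays of any group. A probe was called when its Benjamini-Hochberg adjusted p from limma, over all 16588 probes, was under 0.01 and its change over 2-fold. In KNL vs WNL 4 of these 13 markers were called lower and 0 higher, where 13.5% of all probes were called lower. The lowest was Neurod6, a transcription factor of pyramidal neurons, at -3.19 (log2 change, adjusted p = 0.000727), and the highest Dsp, at 0.59 (adjusted p = 0.0438), which was not called. Their summed intensity was 70119 to 75163 in KNL and 61911 to 66893 in WNL, a sum in which bright probes weigh most. C1ql2 and Nrgn, the brightest of the 13, averaged 28836 and 16695 in KNL and 19974 and 12201 in WNL. Neither was called in KNL vs WNL. Of 8 choroid plexus markers 1 was called lower there, Ttr, which averaged 11775 in KNL and 49439 in WNL. The other 7 summed to 4170 to 4279 in KNL and 4712 to 5167 in WNL, with Slc4a5 at 0.90 and Otx2 at -0.77 and no call among them. In KTL these 7 summed to 2257 to 2372, against 4379 to 5079 in WTL, and all 8 markers to 19814 to 20695, against 40319 to 42635 in WTL. The median change of the 8 was -1.01 in KTL vs WTL with 1 called lower, -1.45 in KTL vs WNL with 2 called lower, and -0.87 in KTL vs KNL with 4 called lower. In KNL vs WNL, of 14 glial and vascular markers 1 was called higher and 2 lower, against 6.93% and 13.5% of all probes. Higher was Pecam1, at 1.025 on its brighter probe and 0.38 on its dimmer probe. Lower were Flt1, at the floor on both KNL arrays, and Gfap, at -1.23 on its brighter probe and 0.12 on its dimmer probe. The 14 markers summed to 45950 to 50473 in KNL and 69759 to 70597 in WNL, with 3 at the floor on both KNL arrays. Their median change in KNL vs WNL was -0.37, against 0.16 over all probes. Mbp, the brightest of the 14, weighs most in the sum. It averaged 20808 in KNL and 38614 in WNL and was not called, while Mag and Mog changed by 0.03 and 0.01. Of 7 striatal neuron markers none was called in KNL vs WNL. In KTL vs KNL 2 glial and vascular markers were called higher and 0 lower, and 1 striatal marker was called lower. The part of these differences in the results below was not tested.

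Promoter windows were looked up for the members because 2 probes, of Ppp1cb and Ppp1cc, were called in the same direction. Both were lower in KNL vs WNL, where 13.5% of all probes were called lower. The other probes of these genes changed by 0.67 and 0.10 on the log2 scale and were not called. A further reason was Rcan1, a known target of calcineurin and NFAT, for which the arrays of all groups overlapped. RefSeq windows on GRCm38.p6, from 250 bases before to 50 bases after a transcript start, were at hand for 6 of the 10 genes, with 9 windows. The windows of Ppp1cb (chr5:32458720-32459019, + strand), Ppp1cc (chr5:122158025-122158324, + strand), Ppp3r1 (chr11:17159048-17159347, + strand) and the downstream one of the 2 Rcan1 starts (chr16:92400029-92400328, - strand) are shown 5′ to 3′. Capitals mark matches on either strand to GGGCGG (the GC box), GGAAA (the core that NFAT factors bind), TGACG (the short form of the cAMP response element) and TGACGTCA (its full form, which contains the short form).
Ppp1cb: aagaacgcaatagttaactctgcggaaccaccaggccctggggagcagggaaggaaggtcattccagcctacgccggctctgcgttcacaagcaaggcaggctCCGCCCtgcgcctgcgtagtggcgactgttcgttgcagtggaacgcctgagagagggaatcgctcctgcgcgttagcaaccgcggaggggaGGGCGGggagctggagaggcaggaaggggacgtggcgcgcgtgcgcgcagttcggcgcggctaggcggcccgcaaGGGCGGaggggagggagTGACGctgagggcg
Ppp1cc: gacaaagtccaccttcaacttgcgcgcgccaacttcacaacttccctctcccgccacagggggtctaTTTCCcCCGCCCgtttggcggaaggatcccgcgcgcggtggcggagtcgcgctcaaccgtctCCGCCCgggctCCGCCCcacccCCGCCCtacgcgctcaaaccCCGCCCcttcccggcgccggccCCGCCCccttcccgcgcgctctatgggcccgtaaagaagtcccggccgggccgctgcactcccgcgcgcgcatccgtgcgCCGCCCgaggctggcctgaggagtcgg
Ppp3r1: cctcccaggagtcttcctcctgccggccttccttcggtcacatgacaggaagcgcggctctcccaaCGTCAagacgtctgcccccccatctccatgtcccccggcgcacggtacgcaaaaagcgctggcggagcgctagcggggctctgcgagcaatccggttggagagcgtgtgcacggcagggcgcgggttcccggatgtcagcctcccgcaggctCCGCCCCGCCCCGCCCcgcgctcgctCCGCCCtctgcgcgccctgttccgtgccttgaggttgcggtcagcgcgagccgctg
Rcan1: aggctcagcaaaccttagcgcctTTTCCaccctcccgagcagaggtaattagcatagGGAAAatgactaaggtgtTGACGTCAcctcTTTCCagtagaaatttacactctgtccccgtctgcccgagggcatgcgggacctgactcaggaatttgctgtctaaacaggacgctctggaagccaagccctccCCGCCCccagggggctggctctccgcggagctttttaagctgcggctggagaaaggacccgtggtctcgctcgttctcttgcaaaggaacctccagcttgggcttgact
The Ppp1cb window held 3 matches to GGGCGG and 1 to TGACG. The Ppp1cc window held 7 matches to GGGCGG and 1 to GGAAA. The Ppp3r1 window held 4 matches to GGGCGG, some of them overlapping, and 1 to TGACG. The Rcan1 window held 3 matches to GGAAA, 1 to GGGCGG and 1 to TGACGTCA, the only member window of 9 with the full element. Of the 9 member windows, shown or not, 6 held GGGCGG, 4 GGAAA, 5 TGACG and 1 TGACGTCA. The windows of Rcan2, whose probe was also lower in KNL than in WNL, held 0 matches to GGGCGG. The other Rcan1 window held 6 matches to GGGCGG and 0 to GGAAA. Of all 32851 windows 35.7% held GGGCGG, 61.3% GGAAA, 20.8% TGACG and 1.79% TGACGTCA, so that apart from the full element these letters are common. A match is a run of letters and not a measured binding site.

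In naive mice, the largest differences among the members were those of 2 probes of PP1 catalytic subunits. The brighter probe of Ppp1cb was 8.74-fold lower in KNL than in WNL and the brighter probe of Ppp1cc 4.51-fold lower, whereas Ppp1ca was 1.5-fold higher in KNL. By the rule for calls 2 of the 13 member probes were called, both lower in KNL, against 20.4% of all probes called in either direction and 13.5% called lower. With the adjusted p alone 7 of 13 passed, 3 higher and 4 lower in KNL, against 37.8% of all probes. The members as a set were thus called about as often as any probes on the array.

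**Figure D1:**
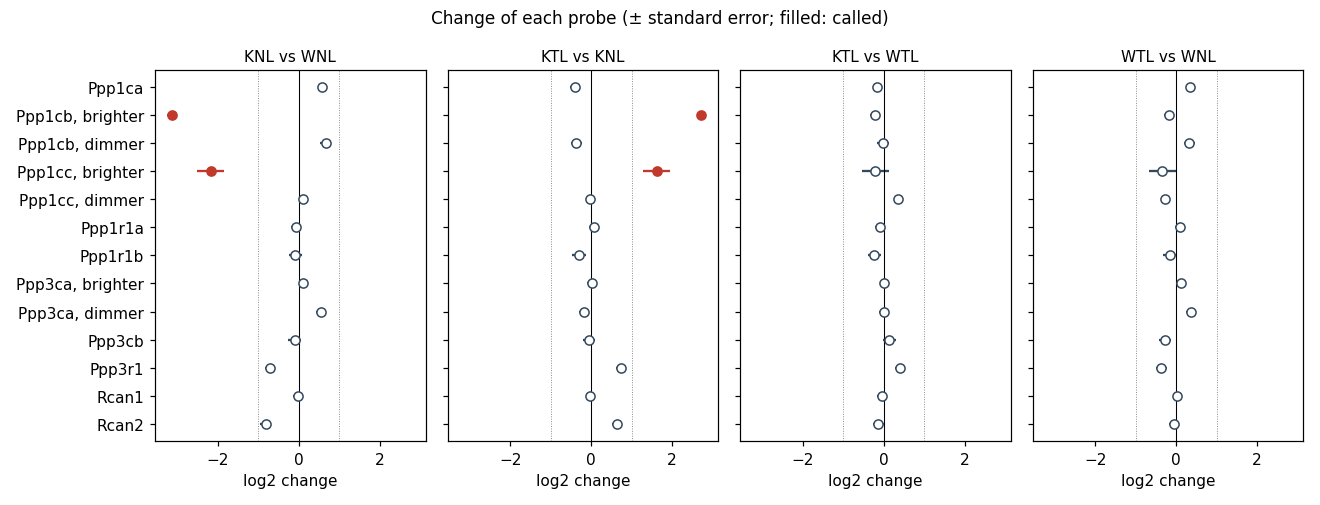
Log2 change of each of the 13 member probes in 4 comparisons, with points at the fitted change, bars of 1 standard error, filled points for called probes and dotted lines at 2-fold (n = 2 arrays per group). The brighter probes of Ppp1cb and Ppp1cc lie far to the left in KNL vs WNL and far to the right in KTL vs KNL, and no probe is filled in KTL vs WTL or WTL vs WNL.

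Ppp1cb encodes the beta catalytic subunit of PP1, the form that partners with myosin phosphatase targeting subunits. Its brighter probe read 4834 and 4831 in KTL, 796 and 673 in KNL, 5426 and 5814 in WTL and 6326 and 6471 in WNL. Both KNL arrays lay far below the other 6 arrays, and the arrays of the groups did not overlap. The log2 change was -3.13 in KNL vs WNL (standard error (SE) 0.12, 95% interval -3.41 to -2.85, adjusted p = 0.000117), and it ranked 41 from the lowest among the 16588 probes. In KTL vs KNL the probe was 6.60-fold higher in KTL (2.72 on the log2 scale, SE 0.12, adjusted p = 0.00018). The levels ran, low to high, KNL, KTL, WTL and WNL, and the neighbors KTL and WTL (adjusted p = 0.382) and WTL and WNL (adjusted p = 0.489) did not pass the test.

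The other Ppp1cb probe went the opposite way. It read 461 and 451 in KTL, 546 and 635 in KNL, 423 and 507 in WTL and 396 and 347 in WNL, with both KNL arrays above all others. The log2 change in KNL vs WNL was 0.67 (SE 0.14, adjusted p = 0.00787), under 2-fold. The brighter probe's change minus that of the dimmer one was -3.80 (SE 0.19) in KNL vs WNL and 3.09 (0.19) in KTL vs KNL, against -0.19 (0.19) in KTL vs WTL and -0.51 (0.19) in WTL vs WNL. The places of the probes on the transcripts are not given in the sources used here, and which of them follows the gene as a whole was not tested.

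Ppp1cc encodes the gamma catalytic subunit, which is enriched in dendritic spines. Its brighter probe read 2478 and 3210 in KTL, 1214 and 692 in KNL, 4148 and 2547 in WTL and 3942 and 4333 in WNL. Both KNL arrays lay below the other 6, but the arrays of a group spread widely, up to 1.75-fold in KNL and 1.63-fold in WTL. The log2 change was -2.17 in KNL vs WNL (SE 0.33, 95% interval -2.97 to -1.38, adjusted p = 0.00242) and 1.62 in KTL vs KNL (SE 0.33, 95% interval 0.82 to 2.42, adjusted p = 0.00729). The call in KNL vs WNL was lost without KNL replicate 2 (adjusted p = 0.0207), WNL replicate 1 (0.0151) or WNL replicate 2 (0.0204). The call in KTL vs KNL was lost without any 1 of the KTL, KNL or WNL arrays, with adjusted p-values of 0.0125 to 0.0563. The dimmer Ppp1cc probe, close to the floor at 121 to 164, had a log2 change of 0.10 in KNL vs WNL (adjusted p = 0.413), and the brighter probe's change minus this one was -2.275 (SE 0.374).

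Ppp1ca encodes the alpha catalytic subunit. It read 6111 and 6220 in KTL, 8615 and 7760 in KNL, 6966 and 6910 in WTL and 5233 and 5666 in WNL. Both KNL arrays were above the other 6 and both WNL arrays below them. The log2 change in KNL vs WNL was 0.59 (SE 0.11, 95% interval 0.33 to 0.84, adjusted p = 0.00424), in the opposite direction to the brighter Ppp1cb and Ppp1cc probes, and stayed under 2-fold. The median over all 16588 probes was itself 0.16 in this comparison, and 0.09 with cyclic loess normalization, so that 0.59 is to be read against that shift. The same holds for the other changes in KNL vs WNL, among them those of the dimmer Ppp1cb and Ppp3ca probes. The change in KTL vs KNL was -0.41 (adjusted p = 0.0164), which did not pass.

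**Figure D2:**
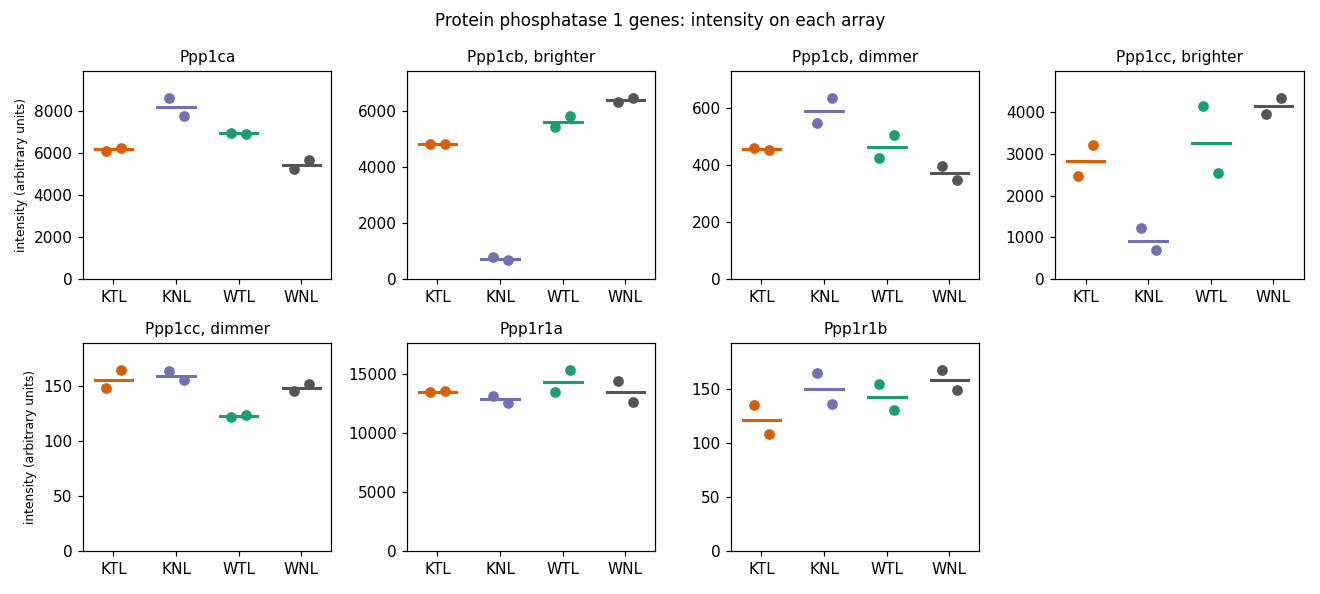
Intensity (arbitrary units, linear axes from 0) of the 7 probes of PP1 genes on each array, with points for the 2 arrays and bars for the geometric mean of KTL, KNL, WTL and WNL. The brighter Ppp1cb probe sits at 673 and 796 in KNL and at 4831 or more elsewhere, while its dimmer probe and Ppp1ca are highest in KNL.

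Neither PP1 inhibitor passed the test in a comparison of 2 groups. Ppp1r1a, which encodes inhibitor 1 and blocks PP1 once protein kinase A has phosphorylated it, read 13443 and 13557 in KTL, 13148 and 12546 in KNL, 13443 and 15311 in WTL and 14369 and 12605 in WNL. The KNL and WNL arrays overlapped, while KNL lay just below KTL and WTL, and the log2 change in KNL vs WNL was -0.07 (95% interval -0.35 to 0.22, adjusted p = 0.638). Ppp1r1b encodes DARPP, the dopamine-regulated inhibitor that marks medium spiny neurons of the striatum. It stayed between 109 and 168 on all 8 arrays, with a change of -0.08 in KNL vs WNL (95% interval -0.48 to 0.33, adjusted p = 0.698), and so close to the floor a fall could hardly have been seen.

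Among the calcineurin genes no probe was called in a comparison of 2 groups, and the subunit genes past the adjusted p lay on both sides of 0. Ppp3ca encodes the alpha catalytic subunit, the main calcineurin of forebrain neurons. Its brighter probe read 65475 and 65475 in KTL, 65476 and 64593 in KNL, 65477 and 65477 in WTL and 64211 and 56899 in WNL. The highest value in the whole table was 65480, so this probe was at or near the scanner's ceiling on most arrays and a difference above that level could not be seen. Its dimmer probe, well under the ceiling, read 26841 and 26046 in KTL, 30931 and 28802 in KNL, 24308 and 28669 in WTL and 19810 and 21196 in WNL. Both KNL arrays were the highest and both WNL arrays the lowest, and the change in KNL vs WNL was 0.54 (SE 0.12, 95% interval 0.26 to 0.83, adjusted p = 0.00902).

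Ppp3cb encodes the beta catalytic subunit. It read 8607 and 10842 in KTL, 10786 and 9263 in KNL, 8592 and 8972 in WTL and 9960 and 11464 in WNL. The KNL and WNL arrays overlapped, and the change was -0.10 (95% interval -0.47 to 0.28, adjusted p = 0.607).

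Ppp3r1 encodes the calcium-binding regulatory subunit, calcineurin B, without which the catalytic subunits are inactive. It read 484 and 393 in KTL, 262 and 265 in KNL, 328 and 338 in WTL and 434 and 424 in WNL. The KNL arrays were the lowest, the WTL arrays next, and KTL and WNL overlapped. The log2 change was -0.70 in KNL vs WNL (SE 0.12, adjusted p = 0.00404) and 0.73 in KTL vs KNL (SE 0.12, adjusted p = 0.00393), both under 2-fold. Its direction was thus opposite to that of the dimmer Ppp3ca probe, which encodes its catalytic partner.

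**Figure D3:**
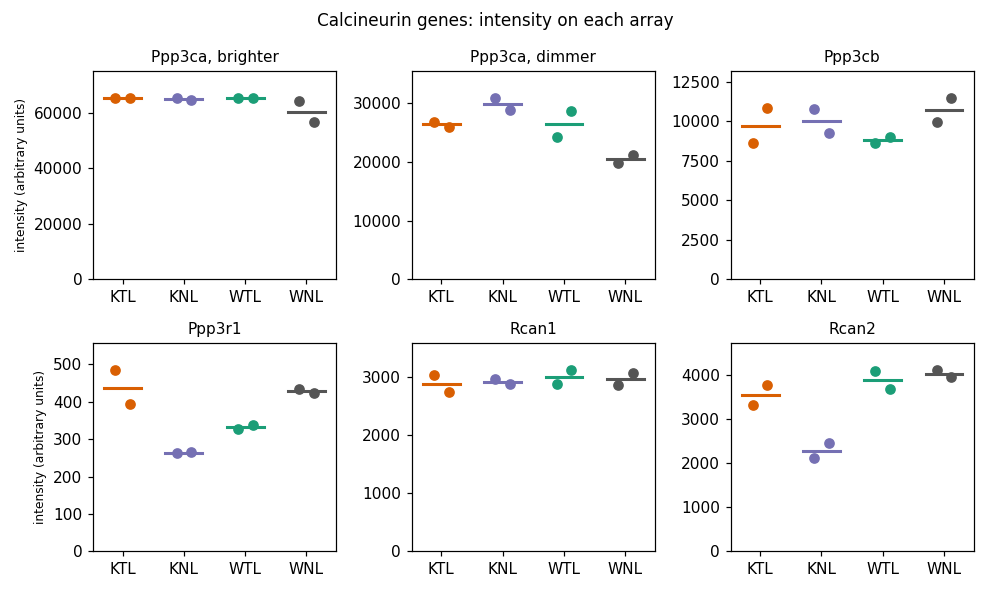
Intensity (arbitrary units, linear axes from 0) of the 6 probes of calcineurin genes on each array, with points for the 2 arrays and bars for the geometric mean of KTL, KNL, WTL and WNL. Ppp3r1 and Rcan2 are lowest in KNL, at 262 to 265 and 2127 to 2455, and the brighter Ppp3ca probe is pressed against the upper limit of the scanner.

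Rcan1 and Rcan2 encode proteins that bind calcineurin and restrain it. Rcan1 read 3029 and 2749 in KTL, 2965 and 2879 in KNL, 2877 and 3117 in WTL and 2864 and 3063 in WNL. The arrays of all groups overlapped, and its change of -0.02 in KNL vs WNL had a 95% interval of -0.28 to 0.24 (adjusted p = 0.886), so a change of 2-fold lay outside that interval. Only 1 probe measured Rcan1, and the sources used here do not say from which of its 2 starts the detected transcripts come. Rcan2 read 3318 and 3781 in KTL, 2127 and 2455 in KNL, 4093 and 3690 in WTL and 4111 and 3946 in WNL. Both KNL arrays were below the other 6. Rcan2 changed by -0.82 in KNL vs WNL (SE 0.13, adjusted p = 0.00261) and by 0.63 in KTL vs KNL (SE 0.13, adjusted p = 0.00697), again under 2-fold.

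Trained knockout mice were next set against naive ones, a comparison that shares the KNL arrays with the one above, so that the 2 sets of changes are not independent. In KTL vs KNL 2 of 13 member probes were called, both higher in KTL, against 20.1% of all probes called and 12.6% called higher. They were the brighter probes of Ppp1cb and Ppp1cc. With the adjusted p alone Ppp3r1 and Rcan2 were added, 4 of 13 in all, against 35.6% of all probes.

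Against wild-type arrays no member probe was called in the trained knockout; the choroid plexus markers, whose median changes there were below 0, are given above, and their part in these values was not tested. In KTL vs WTL 0 of 13 member probes were called by limma, against 0.0241% of all probes, and the smallest adjusted p was 0.188. At an unadjusted p under 0.05 there were 2, the dimmer Ppp1cc probe (0.35 on the log2 scale) and Ppp3r1 (0.39), against 17.5% of all probes. For the brighter Ppp1cb probe the change was -0.22 with a 95% interval of -0.50 to 0.06, and for the brighter Ppp1cc probe -0.20 with a wide interval of -1.002 to 0.593. In KTL vs WNL 0 of 13 were called, against 0.0422% of all probes, with 2 at an unadjusted p under 0.05, against 11.5%. There the brighter Ppp1cb probe had a change of -0.40 (95% interval -0.69 to -0.12, adjusted p = 0.283).

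Training in wild-type mice gave no call either. In WTL vs WNL 0 of 13 member probes were called by limma, against 0% of all probes, and the smallest adjusted p was 0.242. At an unadjusted p under 0.05 there were 4, against 15.1% of all probes. These were Ppp1ca (0.35 on the log2 scale), the dimmer Ppp3ca probe (0.37), the dimmer Ppp1cc probe (-0.28) and Ppp3r1 (-0.37). The brighter Ppp1cb probe had a change of -0.19 (95% interval -0.47 to 0.09), and Rcan1 one of 0.02 (95% interval -0.24 to 0.28).

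Whether training had a different effect in knockout and wild-type mice was tested as an interaction, the change in KTL vs KNL minus that in WTL vs WNL. Of the 13 member probes 2 were called, against 21.8% of all probes. The brighter Ppp1cb probe had an interaction of 2.91 (SE 0.17, adjusted p = 7e-04), from 2.72 in knockout and -0.19 in wild-type mice. Ppp3r1 had one of 1.09 (SE 0.18, adjusted p = 0.00454), from 0.73 in knockout and -0.37 in wild-type mice, so here the point estimates lay on opposite sides of 0. Leaving out any 1 of the 8 arrays ended the Ppp3r1 call, at adjusted p-values of 0.011 to 0.0206. For Ppp1ca the interaction was -0.76 (SE 0.15, adjusted p = 0.00803), under 2-fold, and for the brighter Ppp1cc probe it was 1.97 (SE 0.47, adjusted p = 0.0148), which did not pass.

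The position of both KNL arrays relative to the other 6 was counted as well. They lay outside the range of the other 6 for 7 of the 13 member probes, below it for 4 and above it for 3. Over all probes the share was 64.4%, with 26.9% below and 37.5% above, so the members were displaced about as often as other probes. The 4 below were the brighter Ppp1cb and Ppp1cc probes, Ppp3r1 and Rcan2, and the 3 above were Ppp1ca, the dimmer Ppp1cb probe and the dimmer Ppp3ca probe. The median change of the 13 probes in KNL vs WNL was -0.07 on the log2 scale, against 0.16 over all probes.

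**Figure D4:**
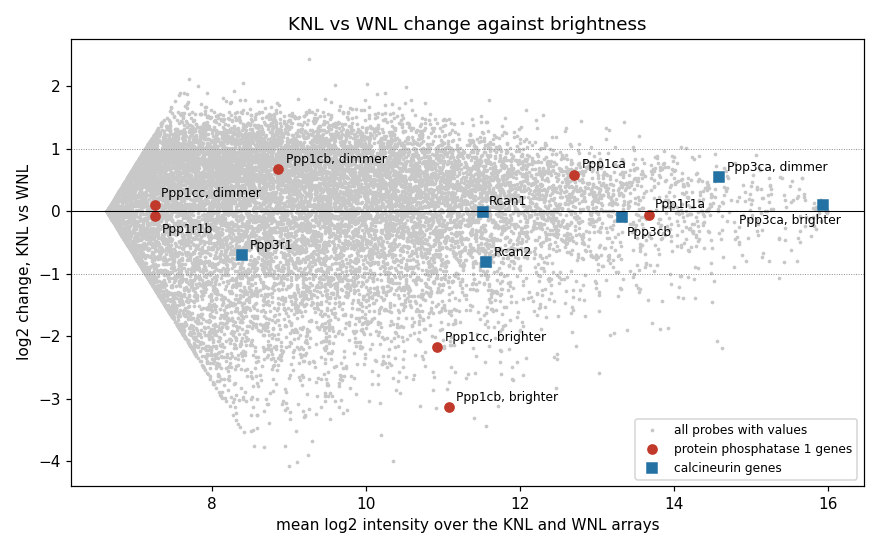
Log2 change in KNL vs WNL against the mean log2 intensity over the KNL and WNL arrays, with gray points for all 16588 probes, circles for PP1 genes, squares for calcineurin genes and dotted lines at 2-fold. The brighter Ppp1cb and Ppp1cc probes, at -3.13 and -2.17, lie below most probes of like intensity, and the other 11 member probes lie inside the dotted lines.

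Genes that shared the pattern of a catalytic subunit over the 8 arrays were named by Pearson's r of log2 intensities. The brighter Ppp1cb probe was most like Crk, an adaptor of tyrosine kinase signaling (r = 0.999), and Arf1, a GTPase of the Golgi (r = 0.999). The brighter Ppp1cc probe was most like Endod1 (r = 0.997) and Evl, a regulator of actin filaments (r = 0.995). Ppp1ca was most like Zbtb8a (r = 0.987) and Gemin7 (r = 0.986), and Ppp3cb had no close match, with AI593442 at 0.916. For the brighter Ppp3ca probe, which was limited by the scanner's ceiling, the best was Usf2 (r = 0.983). These values describe 8 arrays in 4 groups, were picked as the highest among all named probes, and rest on the KNL arrays where a gene was displaced there.

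Around the members, 3 lists of related genes were counted on the brightest probe of each gene. Of 40 listed PP1 regulatory and targeting subunits 26 were measured. In KNL vs WNL 2 of them were called higher, 4 lower and 20 were not called, with a median change of -0.06, where 6.93% of all probes were called higher and 13.5% lower. Ppp1r3c, which tethers PP1 to glycogen, lay at the floor on both KNL arrays and was at least 4.67-fold lower in KNL (adjusted p = 0.000735). Ppp1r15b, which directs PP1 to the translation factor eIF2, also lay at the floor there and was at least 4.52-fold lower (adjusted p = 0.000526), but its second probe had a change of 0.41 (adjusted p = 0.0457). Phactr3, an actin-binding partner of PP1, had a log2 change of -1.79 (SE 0.20, adjusted p = 0.000842). For the related Phactr1 it was -1.47 (SE 0.16, adjusted p = 0.000861). Ppp1r9b, the spine protein spinophilin that anchors PP1 at synapses and was picked after its values were seen, averaged 8925 in KNL and 9289 in WNL (adjusted p = 0.695).

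Of 39 listed calcineurin partners, anchors and targets 27 were measured, of which 2 were called higher in KNL than in WNL, 4 lower and 21 were not called, with a median of 0.13. The shares over all probes were again 6.93% higher and 13.5% lower. Csnk1a1, a casein kinase that phosphorylates NFAT, averaged 277 in KNL and 1481 in WNL, a change of -2.42 (SE 0.24, adjusted p = 0.000552). Ryr2, the calcium release channel of the endoplasmic reticulum, fell by 2.05 (SE 0.18, adjusted p = 0.000398) on its brighter probe, and its dimmer probe, near the floor, had a change of 0.15 (adjusted p = 0.435). Cabin1, a protein that binds and inhibits calcineurin, was higher at 2107 in KNL, against 835 in WNL (1.34, SE 0.15, adjusted p = 0.000943). Dyrk1b, a kinase of the Dyrk family, rose by 1.30 (SE 0.19, adjusted p = 0.00208). Ppp3cc and Rcan3, paralogs of members on this list, were picked after their values were seen. Ppp3cc averaged 2375 in KNL and 1596 in WNL (0.57, adjusted p = 0.00876), and Rcan3 618 in KNL and 869 in WNL (-0.49, adjusted p = 0.0146).

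The other phosphatases of the same superfamily were counted for comparison. Of 33 listed subunits of PP2A, PP4, PP5 and PP6, 28 were measured, and in KNL vs WNL 0 were called higher, 7 lower and 21 were not called, with a median of 0.01. Those with the largest falls were Ppp2r1b, a scaffold subunit of PP2A (-1.47, SE 0.16, adjusted p = 0.000869), and its regulatory subunit Ppp2r2c (-1.41, SE 0.15, adjusted p = 0.000708). Ppp4r4 (-1.24, adjusted p = 0.00237) and Ppp2r2d (-1.19, adjusted p = 0.00722) followed. The share called lower was 13.5% over all probes.

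After training in knockout mice, KTL vs KNL, the PP1 list had 5 genes called higher, 3 lower and 18 not called. The calcineurin list had 4 higher, 2 lower and 21 not called, and the list of other phosphatases 6 higher, 0 lower and 22 not called. Over all probes 12.6% were called higher and 7.5% lower in this comparison. Csnk1a1, for example, averaged 1072 in KTL and 277 in KNL (1.95, SE 0.24, adjusted p = 0.00131), and Cabin1 925 in KTL and 2107 in KNL (-1.19, SE 0.15, adjusted p = 0.00158). The same KNL arrays enter both comparisons. In KTL vs WTL, WTL vs WNL and KTL vs WNL none of the measured genes of the 3 lists was called by limma.

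**Figure D5:**
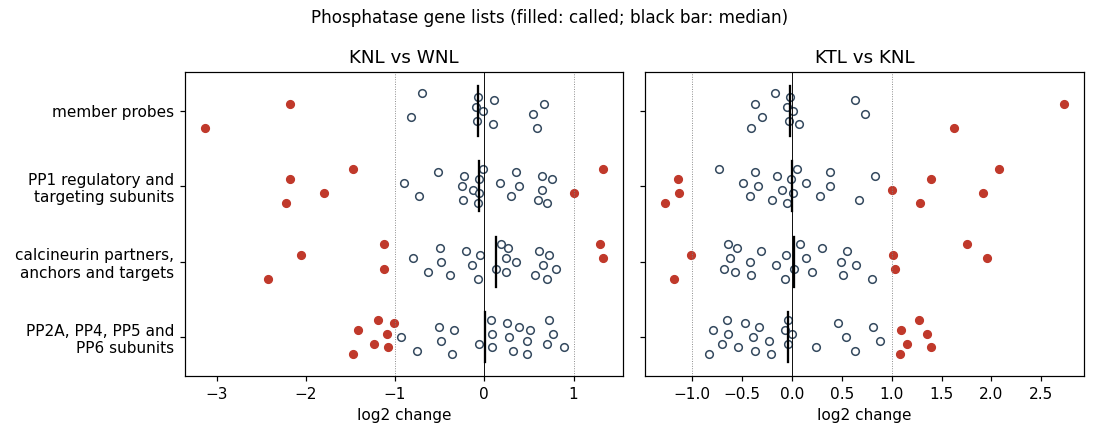
Log2 change in KNL vs WNL and in KTL vs KNL of the 13 member probes and of the genes of 3 phosphatase lists, with filled points for called genes, black bars for medians and dotted lines at 2-fold. Each row is spread widely around a median near 0, with medians from -0.07 to 0.13 in KNL vs WNL.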

How the data were processed

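Left hippocampal RNA of 4 groups was measured on 2 Mouse Whole Genome OneArray arrays each. Per the labels and the methods, the authors amplified the RNA, labeled it with Cy5, scanned and quantile-normalized the arrays, and deposited 1 intensity per probe and array on a linear scale. The methods mention technical replicates that were averaged, and the aligner and genome build behind the probe annotation are not given in the sources used here. Array medians lay between 481 and 482, and 6.64% to 6.86% of the probes of an array were below 100. That share limits precision for dim probes, and counting depth does not apply to arrays. The 13334 probes that were blank on every array were left out; the filter behind the blanks is not stated.

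A floor of 100, quantile normalization and log2 were applied, in the order the methods give. limma 3.58.1 (R 4.3.3) was fitted to all 8 arrays, with a mean for every group and empirical Bayes spread (4 residual and 2.45 prior degrees of freedom). The contrasts were adjusted by Benjamini-Hochberg over 16588 probes in each. Probes were called at an adjusted p below 0.01 if they also changed by more than 2-fold, as in the methods. The methods' own test, Significance Analysis of Microarrays, was not used, since 2 arrays against 2 allow few splits. Means are geometric, and errors are limma's standard errors. Symbols came from the platform annotation, with 13183 probes holding 1 symbol, 3405 none and 0 several. "Brighter" and "dimmer" only tell apart the probes of a gene by their mean intensity.

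The members, gene lists and markers were chosen with earlier results of these data known. Named were all members, Cacna1h, up to 4 genes of a list (those called in KNL vs WNL with the largest change first) and the genes most like each catalytic subunit. Ppp1r9b, Ppp3cc, Rcan3 and a few markers fall outside this rule and were named after their values were seen. Alternatives changed the floor, normalization, dim-probe filter, spread model, arrays, replicate block and threshold.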

Additional observations from a re-analysis of the deposited data

Results flagged for a closer look

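For 3 member probes the interaction, the change in KTL vs KNL minus that in WTL vs WNL, passed the adjusted p. These p-values measure the spread between 2 arrays of a group, which may be technical. The brighter Ppp1cb probe had an interaction of 2.91 (limma, adjusted p = 7e-04), with changes of 2.72 in knockout and -0.19 in wild-type mice. It was called in all 15 alternatives run for it, at 2.79 to 3.03. Ppp3r1 had an interaction of 1.09 (adjusted p = 0.00454), with changes of 0.73 in knockout and -0.37 in wild-type mice, and lost the call when any 1 array was left out. Ppp1ca had an interaction of -0.76 (adjusted p = 0.00803), with changes of -0.41 in knockout and 0.35 in wild-type mice, and passed the adjusted p in 5 of those 15 alternatives. All 3 contrasts include the KNL arrays, which stood apart from the others over the whole array. By the adjusted p alone, which flagged these 3 of 13 member probes, 26.2% of all probes passed in the same test. With the 2-fold threshold added 21.8% of all probes were called.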

How the results depend on the processing

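The brighter Ppp1cb probe was called in KNL vs WNL and in KTL vs KNL under all 16 alternatives with a fitted change, at -3.25 to -3.01 and 2.60 to 2.85. Of the 2 member probes called in KNL vs WNL, 1 was left with a floor of 200 and 1 with only the 4 arrays of the 2 groups, and leaving out single arrays gave 1 to 2. For KTL against KNL, 1 was left with a floor of 200, 1 with only 4 arrays and 1 with the replicate block, and 1 to 2 when single arrays were left out. In each case the lost call was the brighter Ppp1cc probe, whose adjusted p ran from 0.00115 to 0.0207 in KNL vs WNL and from 0.00404 to 0.0563 in KTL vs KNL. The probes past the adjusted p alone in KNL vs WNL kept their direction, but their adjusted p reached 0.0222 for Ppp1ca, 0.05 for the dimmer Ppp1cb probe, 0.0418 for the dimmer Ppp3ca probe, 0.0254 for Ppp3r1 and 0.0157 for Rcan2. At an adjusted p under 0.05 with no fold threshold the counts were 7 in KNL vs WNL, 5 in KTL vs KNL and 7 for the interaction, and the interaction had 1 called without any single array. With cyclic loess, and with the filter on dim probes, the interaction had 3 called. The added probe was the brighter Ppp1cc probe (limma, adjusted p = 0.0092 and 0.00905). The counts of 0 in the other comparisons were 0 throughout. The labels do not say whether replicate numbers pair arrays. Correlations of replicate differences ran from -0.249 to 0.432 over 6 pairs of groups, and such mixed values cannot settle it. The replicate block changed no other count of member probes. Over all probes the calls in KNL vs WNL numbered 3383, but 1819 with a floor of 200, 2187 with only 4 arrays and 1400 without KNL replicate 2. Those in KTL vs KNL numbered 3332, but 1606 with a floor of 200 and 930 without KTL replicate 2. For the interaction they numbered 3610, but 1343 with a floor of 200 and 241 without KTL replicate 2. The few calls over all probes in KTL vs WTL (4) and KTL vs WNL (7) each became 1 with the replicate block and 0 with only 4 arrays, and ran from 0 to 12 and from 0 to 3 when single arrays were left out. Those in WTL vs WNL (0) ran from 0 to 9 in that way.

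Small changes that were not called turned sign. With cyclic loess the dimmer Ppp1cc probe was at -0.0745 in KNL vs WNL and 0.154 in KTL vs KNL, and the brighter Ppp3ca probe at -0.0384 in KTL vs KNL; the cause was not tested. With single arrays left out, changes in KNL vs WNL ran from -0.162 to 0.027 for Ppp1r1a, -0.216 to 0.0578 for Ppp1r1b, -0.206 to 0.0133 for Ppp3cb and -0.0683 to 0.0289 for Rcan1. Changes in KTL vs KNL ran from -0.108 to 0.0423 for the dimmer Ppp1cc probe, -2.89e-05 to 0.0205 for the brighter Ppp3ca probe, -0.216 to 0.117 for Ppp3cb and -0.0881 to 0.0519 for Rcan1. Ppp1r1b and the dimmer Ppp1cc probe lay under 200 on all arrays and gave no value with that floor or under the filter on dim probes. Members close to the floor or at the scanner's ceiling can show only limited change.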
